A study of Arabidopsis thaliana with 18 samples.

Results

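The plastid genome of Arabidopsis thaliana encodes subunits of the photosynthetic complexes together with part of the machinery that transcribes and translates them. The 88 genes described here are all rows of the authors' deposited table whose locus identifier starts with ATCG, the prefix of plastid loci, out of 27628 genes in all. By their symbols and descriptions all 88 encode proteins, and they stand for 79 distinct genes. NDHB, RPL2, RPL23, RPS7, YCF1, YCF2 and ORF77 have 2 rows each, and RPS12, whose mRNA is joined from separate transcripts, has 3. The rows comprise 5 photosystem I genes, 14 photosystem II genes, 6 cytochrome b6f genes, 6 ATP synthase genes, 12 rows of the NADH dehydrogenase-like (NDH) complex, 15 rows of small and 11 rows of large ribosomal subunit proteins, and 4 genes of the plastid RNA polymerase. The Rubisco large subunit, 3 photosystem assembly factors and 11 rows of other proteins complete the set.

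Ribosome profiling and RNA-seq were done on whole 9-day-old seedlings collected at Zeitgeber time 5, that is 5 h after lights on. The genotypes were wild-type Col-0 and the mutants ceres-1 and ceres-2, both in the Col-0 background, with 3 footprint and 3 RNA libraries each, 18 libraries in all. CERES is a protein that binds eIF4E, the factor that recognises the cap of cytosolic mRNAs. What the mutations are was not given in the sources used here. Group comparisons of each mutant with Col-0 were deposited and no value per library, so no SD, standard error or depth stands beside the values below, and the depth is unknown.

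Plastid translation differs from translation in the cytosol. Plastid ribosomes are of the bacterial type, plastid mRNAs carry no cap, and some of them hold a purine-rich stretch before the start codon that can pair with the small ribosomal RNA, known as a Shine-Dalgarno sequence. Plastid genes are mostly transcribed in clusters and the long transcripts are cut into smaller ones, while each photosynthetic complex and the plastid ribosome also contain subunits made in the cytosol from nuclear genes.

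In all, 6 genes passed an adjusted p of 0.05 in at least 1 comparison. The bases before the start codons of 5 are shown because initiation is among the steps at which plastid and cytosolic translation differ. Each window holds the 27 bases before the start codon and the start codon, on the strand of the mRNA, as RefSeq annotates the gene on the plastid genome of build TAIR10.1. PSAJ, PSBH and PSBI lie on the plus strand and PSBM and RPS16 on the minus strand. Capitals mark the start codon and any of 4 motifs (GGAG or its neighbour GAGG, and likewise AGGA or, last, AAGG) within the last 20 bases before it, where overlapping matches run together.
PSBM: aaaataataataataaacgattaaattATG
PSBI: ttttagtaagatcttGGAGattgtgtaATG
PSAJ: ataaagaagaaagAAGGAGGAtttctaATG
PSBH: gatcgtaatgaatacaaaataagatttATG
RPS16: atcaattacacaaactaGAGGAatgttATG
PSAJ has a long run of such letters, PSBI and RPS16 have shorter ones at different distances from the start, and PSBM and PSBH have no match in this window. Of the 77 windows that could be read, 38 (49.4%) held a motif on the mRNA strand and 6 (7.79%) on the other strand.

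No plastid gene passed the threshold for RNA, which here means an adjusted p below 0.05 in the authors' DESeq2 comparison. The counts were 0 of 88 in ceres-1, where 0.0249% of all genes tested were called, and 0 of 88 in ceres-2, where 0.137% were; unadjusted p-values and other tools were not used here. The RNA log2 fold changes of plastid genes nevertheless lay mostly above 0. By the authors' deposited table, values above 0 were found for 71 of 88 in ceres-1 and for 77 of 88 in ceres-2, and the medians were 0.20 and 0.26, beside medians of -0.0041 and -0.0062 over all genes. The lowest plastid adjusted p for RNA came to 0.547 in ceres-1 and 0.402 in ceres-2, at PSAJ in ceres-1 and at PSAJ and PSBF alike in ceres-2, and the adjusted p exceeded 0.99 for 87 and 83 of the 88 rows. Both mutants were compared with the same Col-0 libraries, so their values are given side by side and are not independent of each other. In whole seedlings, a different number of plastids or plastid genomes per cell and a different amount of RNA per plastid cannot be told apart. Whether the shift has a biological source at all was not tested.

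In footprints, which count the mRNA fragments protected by ribosomes, 4 plastid genes fell in ceres-1. They were 4 of the 85 plastid rows with an adjusted p (4.71%), beside 0.642% of all genes called in either direction and 0.291% called lower. Among them, PSBM fell by 1.24 on the log2 scale (2.35-fold, adjusted p = 3.45e-17), PSBI by 0.73 (1.66-fold, adjusted p = 2.37e-05) and PSAJ by 0.63 (1.55-fold, adjusted p = 0.00557), all from the authors' deposited table. PsbM, PsbI and PsaJ are small membrane-spanning subunits of the photosystems. The value of PSBM was the lowest footprint log2 fold change of the 9967 genes tested in ceres-1.

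In ceres-2, 2 of 86 plastid rows passed (2.33%), beside 1.88% of all genes called, 0.733% higher and 1.15% lower, so the plastid share lay near the background. PSBH, which encodes a photosystem II phosphoprotein, fell by 0.40 in ceres-2 (1.32-fold, adjusted p = 0.00315) in the authors' deposited table, and was at -0.46 in ceres-1 (adjusted p = 0.170). RPS16 rose by 1.27 in ceres-2 (2.42-fold, adjusted p = 0.0190) and was at 1.21 in ceres-1, with no adjusted p there in the authors' deposited table. RPS16 encodes a small ribosomal subunit protein in many plants, whereas in Arabidopsis thaliana its transcript has been reported to be spliced poorly or not at all. PSBM, PSBI and PSAJ, called in ceres-1, stood at -0.31, -0.26 and -0.29 for footprints in ceres-2, as listed in the authors' deposited table, with adjusted p from 0.375 to 0.912. Whether the alleles differ at these genes was not tested.

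**Figure D1:**
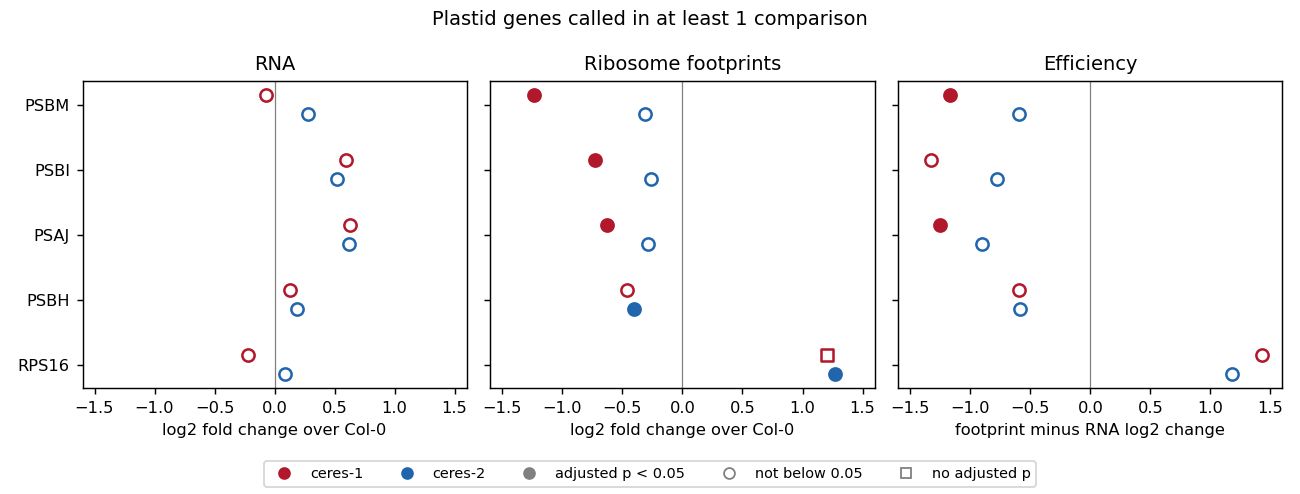
Log2 fold changes over Col-0 of 5 plastid genes called in any comparison, for RNA, footprints and efficiency (footprint minus RNA). Each point is 1 comparison, with RNA and footprint values from the authors' deposited table and efficiency computed from these. Points are filled where the authors' adjusted p was below 0.05 and square where none is given. PSBM stands at -1.24 for footprints in ceres-1 with RNA near 0, while PSBI and PSAJ have RNA above 0 and footprints below 0.

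Translational efficiency, the footprint change set against the RNA change of the same gene, was called for 2 of 88 plastid rows in ceres-1, beside 0.107% of all genes and 0.0413% called lower. Its size is given here as the log2 fold change of footprints less that of RNA. PSBM fell by 1.17 (adjusted p = 0.00253) and PSAJ fell by 1.25 (adjusted p = 0.00574) in ceres-1, with the adjusted p from the authors' deposited table. That table's own efficiency fold change was -1.24 for PSBM and -0.64 for PSAJ, so that the size of PSAJ depends on the measure. The adjusted p did not follow that fold change at each gene. In ceres-1 RPL2.2, at -0.22 there, had a larger one (0.997) than PSBA, at 5.79e-05 (0.957). Which of the measures the adjusted p goes with was not established. PSBM and PSAJ had the smallest and the second smallest adjusted p for efficiency among the 12120 genes tested in that mutant. The parts of the difference were unlike in these genes. The RNA log2 fold change of PSBM stood at -0.069 in ceres-1, so nearly all of its difference lay in the footprints, whereas that of PSAJ was 0.63, about as far above 0 as its footprints were below. In ceres-2, 0 of 88 were called by the authors' test, beside 0.041% of all genes, and the lowest plastid adjusted p was 0.507, at PSAJ. There PSBM was at -0.60 and PSAJ at -0.90 for footprint minus RNA. PSBI had a lower difference than either in ceres-1, -1.32, but an adjusted p of 0.760 in the authors' deposited table, and its RNA was at 0.60 there. RNA of PSBH was at 0.13 and 0.19 and that of RPS16 at -0.22 and 0.091, for ceres-1 and ceres-2 in turn.

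Over the whole plastid set the difference of footprint and RNA lay below 0 for 73 of 88 rows in ceres-1 and for 65 of 88 in ceres-2. Its medians were -0.29 and -0.19, beside 0.0064 and -0.00025 over all genes. Footprints alone had medians of -0.070 in ceres-1 and 0.041 in ceres-2 over the 88 rows in the authors' deposited table, beside 0.0024 and -0.0021 over all genes. The shift of the difference below 0 therefore came mostly from the RNA values, none of which passed the test. It was smaller in ceres-1 and not seen in ceres-2 in the efficiency fold changes of the authors' deposited table, which follow the footprints. There 59 of 88 rows were below 0 in ceres-1, with a median of -0.088, and 38 of 88 in ceres-2, with a median of 0.039, beside -0.0052 and -0.014 over all genes with a value. The values by class given next as footprint minus RNA are subject to the same limit. Across the 88 rows, RNA and footprint log2 fold changes were hardly related within a mutant, with Pearson's r = 0.062 and Spearman's rho = 0.051 in ceres-1 and -0.015 and -0.069 in ceres-2, as a description across genes that share libraries and transcripts.

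**Figure D2:**
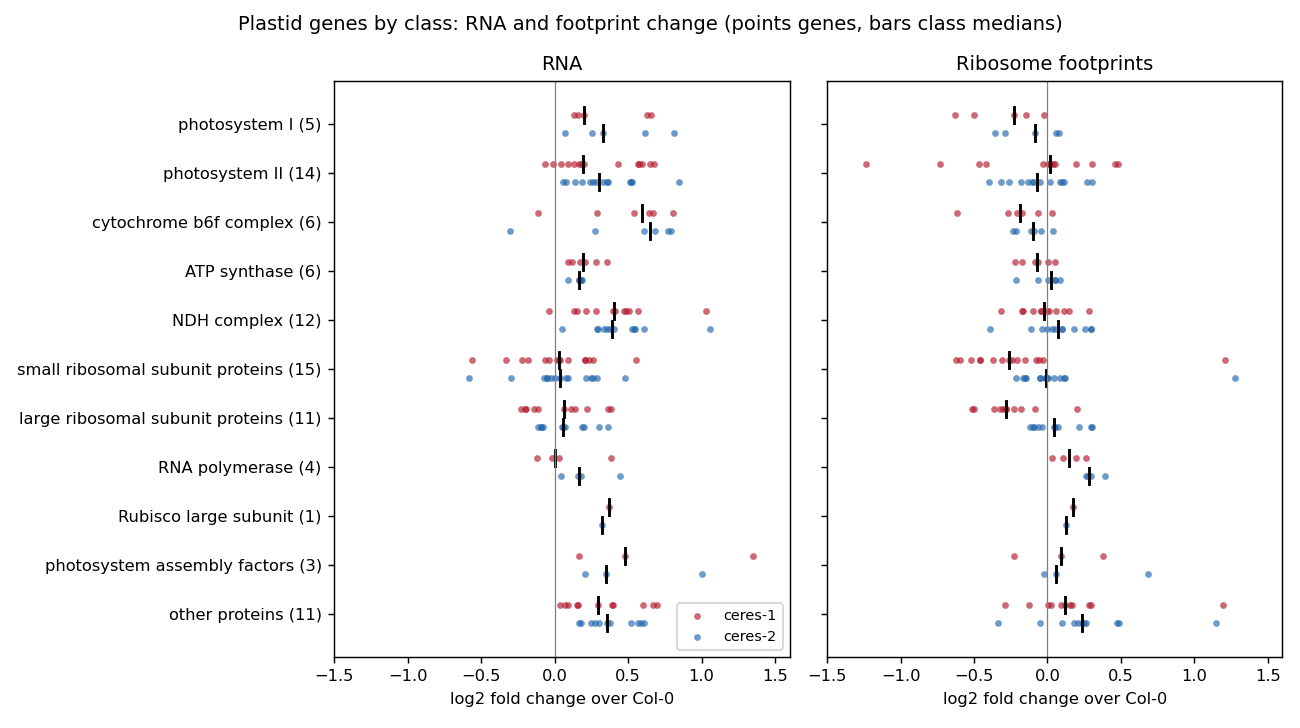
RNA and footprint log2 fold changes over Col-0 of the 88 plastid rows, grouped by class with the number of rows in brackets. Each point is 1 gene in 1 mutant and black bars are class medians. RNA points lie mostly right of 0, except in the ribosomal protein classes and, in ceres-1, the polymerase class, and footprint points of the ribosomal protein classes lie mostly left of 0 in ceres-1 but around 0 in ceres-2.

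Photosystem I, which reduces ferredoxin, had 5 plastid genes. PSAA and PSAB encode its large reaction centre proteins, and their footprint log2 fold changes were listed at -0.14 and -0.024 for ceres-1 and at 0.059 and 0.076 for ceres-2 in the authors' deposited table. PSAC, for the iron-sulfur subunit, was at -0.22 and -0.086. The small subunits PSAI and PSAJ lay lowest, with PSAI at -0.50 in ceres-1 (adjusted p = 0.120) and -0.36 in ceres-2 (adjusted p = 0.376) and PSAJ as above. RNA of PSAI and PSAJ was at 0.65 and 0.63 in ceres-1 and 0.81 and 0.62 in ceres-2, the highest values of the class, in the authors' deposited table. All 5 genes had a footprint change below the RNA change in each mutant, and the class medians of the difference were -0.38 (ceres-1) and -0.25 (ceres-2), but only PSAJ in ceres-1 was called.

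Photosystem II, which oxidises water, had 14 plastid subunit genes, described here as large core subunits and small ones. Footprint values of the large core subunits lay near 0, apart from PSBA and PSBB in ceres-2. PSBA, for the D1 reaction centre protein that is replaced continually in light, had footprint values of 0.054 in ceres-1 and 0.31 in ceres-2 (adjusted p = 0.995 and 0.141) and RNA values of 0.65 and 0.51 in the authors' deposited table. PSBD (D2) was at 0.018 and 0.10, PSBC (CP43) at 0.017 and 0.086 and PSBB (CP47) at -0.033 and -0.18 for footprints in the same table.

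Among the small photosystem II subunits the footprint values were spread in both directions in ceres-1. PSBM, PSBI, PSBH and PSBT were at -1.24, -0.73, -0.46 and -0.42, whereas PSBZ, PSBL, PSBF and PSBJ were at 0.48, 0.46, 0.30 and 0.19 in the authors' deposited table, with adjusted p from 0.898 to 0.965. PSBK and PSBE lay near 0 in ceres-1, at 0.0050 and 0.039, and were at -0.13 and -0.10 in ceres-2. In ceres-2 the small subunit genes ran from -0.40 (PSBH) to 0.27 (PSBL). PSBE, PSBF, PSBL and PSBJ form 1 transcript unit, and PSBE and PSBF encode the subunits of cytochrome b559. RNA was above 0 for 12 of 14 genes in ceres-1 and for 14 of 14 in ceres-2, with medians of 0.19 and 0.30. The difference of footprint and RNA was below 0 for 12 of 14 and 14 of 14, with medians of -0.21 and -0.31.

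The cytochrome b6f complex carries electrons between the photosystems, and its 6 plastid genes had the highest RNA medians of the subunit classes, 0.59 in ceres-1 and 0.65 in ceres-2. PETB and PETD, for cytochrome b6 and subunit IV, were at 0.67 and 0.81 in ceres-1 and at 0.68 and 0.77 in ceres-2 for RNA in the authors' deposited table. The short genes PETN and PETL were at 0.54 and 0.64 in ceres-1 and at 0.61 and 0.79 in ceres-2. PETG was the exception, at -0.11 and -0.31. Footprint medians were -0.19 and -0.10, and PETN was lowest at -0.62 in ceres-1 (adjusted p = 0.857) and -0.24 in ceres-2 (adjusted p = 0.564). Of the complexes it thus had the lowest medians for footprint minus RNA, -0.67 and -0.79, with 0 of 6 genes called in either mutant. The efficiency column of the authors' deposited table gave -0.207 and -0.13. In ceres-1 photosystem I, at -0.214, and the ribosomal proteins, at -0.30, lay lower.

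The ATP synthase genes varied little among themselves. Their RNA values ran from 0.090 to 0.36 in ceres-1 and from 0.089 to 0.19 in ceres-2, and their footprint values from -0.22 to 0.054 and from -0.21 to 0.088, in the authors' deposited table. ATPH, for the membrane ring subunit, was highest in ceres-1 and lowest in ceres-2 for footprints. ATPA and ATPB, for the catalytic head, were at 0.0067 and -0.081 in ceres-1 and at 0.049 and 0.0012 in ceres-2. No ATP synthase gene was called.

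The NDH complex takes part in cyclic electron flow around photosystem I. Its RNA medians were 0.40 in ceres-1 and 0.39 in ceres-2, and NDHE was highest at 1.03 and 1.06 in the authors' deposited table. For footprints NDHE was at -0.098 and -0.11. Footprints were lowest for NDHI, at -0.31 in ceres-1 (adjusted p = 0.693) and -0.39 in ceres-2 (adjusted p = 0.319), and highest for NDHD, at 0.28 (adjusted p = 0.925) and 0.30 (adjusted p = 0.288). NDHD is annotated with ACG in the place of its start codon, which RNA editing is known to turn into AUG. The class medians for footprints were -0.025 and 0.075, and for footprint minus RNA -0.33 and -0.35.

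The ribosomal protein genes differed from the photosynthesis genes in that their RNA values lay around 0. Over the 26 rows the RNA medians were 0.032 in ceres-1 and 0.052 in ceres-2. Footprint values in the authors' deposited table were below 0 for 24 of 26 rows in ceres-1, with a median of -0.28, and for 14 of 26 in ceres-2, with a median of -0.0064. Among the low values, RPS19 was at -0.60 (adjusted p = 0.0626), the RPS7 rows at -0.46 and -0.52 (adjusted p = 0.0824 and 0.0546) and RPL36 at -0.51 (adjusted p = 0.124) in the authors' deposited table. In ceres-2 these were at -0.22, -0.051, -0.053 and 0.29. RPL33, at 0.20 and 0.30, and RPS16 were the rows above 0 in ceres-1. Small and large subunit proteins had like medians, -0.26 and -0.29 in ceres-1 and -0.0075 and 0.046 in ceres-2.

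The mutants can also be set against each other through the difference of their log2 fold changes. The Col-0 values cancel there only if both comparisons were scaled alike and the fold changes were not shrunken. Whether that holds is unknown, so the counts below describe the listed values only. The footprint value of ceres-2 exceeded that of ceres-1 for 70 of 88 plastid rows (79.5%), with a median difference of 0.15, beside 45.0% of the 9966 genes tested in both mutants, with a median of -0.023. The 88 rows include RPS16 and ORF77, which have no footprint adjusted p in ceres-1. For the ribosomal proteins the footprint value of ceres-2 was higher in 26 of 26 rows, with a median of 0.27. These include both copies of RPL2, RPL23 and RPS7 and 3 rows of RPS12, so they are not 26 separate measurements. It was higher for 21 of the 31 genes of the photosystems, cytochrome b6f and ATP synthase (median 0.082), 8 of 12 NDH rows (median 0.073) and 4 of 4 polymerase genes (median 0.18). No test of this difference could be made from the authors' deposited table.

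The plastid-encoded RNA polymerase transcribes most photosynthesis genes, and its 4 subunit genes stood above 0 for footprints in both mutants without any call. RPOB was at 0.19 in ceres-1 and 0.39 in ceres-2 (adjusted p = 0.833 and 0.454), RPOC1 at 0.26 and 0.28, RPOC2 at 0.10 and 0.26, and RPOA at 0.031 and 0.30 in the authors' deposited table. RNA of the RPOB, RPOC1 and RPOC2 unit was between -0.12 and 0.027 in ceres-1 and between 0.045 and 0.18 in ceres-2. RPOA, which lies at the end of a ribosomal protein cluster, was at 0.38 and 0.45 for RNA. The class was the sole complex with medians above 0 for footprint minus RNA in both mutants, 0.18 and 0.10.

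Among the remaining genes, RBCL, for the large subunit of the carbon-fixing enzyme Rubisco, was at 0.37 and 0.32 for RNA and at 0.18 and 0.13 for footprints in ceres-1 and ceres-2 (footprint adjusted p = 0.816 and 0.860), in the authors' deposited table. PSBN, which encodes a photosystem assembly factor, had the highest plastid RNA value in ceres-1, at 1.35, and was second to NDHE in ceres-2. PSBN lies between PSBT and PSBH on the opposite strand. How strand was treated in counting was not given in the sources used here, so reads from PSBN and from the antisense transcript cannot be told apart. CLPP1, for the proteolytic subunit of the plastid Clp protease, had the lowest footprint mean of the other proteins, at -0.29 and -0.048 (adjusted p = 0.518 and 0.962), with RNA at 0.70 and 0.57. YCF3, a photosystem I assembly factor, was at -0.23 and 0.061 for footprints. None of these was called.

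The listed values differed between genes of the same primary transcript, by more in some clusters than in others. RNA log2 fold changes spanned only 0.18 in ceres-1 and 0.0090 in ceres-2 in the atpB cluster, and 0.15 and 0.19 in the psbD cluster. No plastid gene was called for RNA, and differences between genes of a cluster were not tested. In the psbB cluster the RNA log2 fold changes ran from -0.012 at PSBB to 0.81 at PETD in ceres-1 and from 0.056 at PSBB to 0.85 at PSBT in ceres-2, by the authors' deposited table. In the cluster that runs from RPS15 to NDHD, NDHE stood at 1.03 and its neighbour PSAC at 0.16 in ceres-1. PSAJ was at 0.63 and RPS18, transcribed with it, at -0.33. Footprints in ceres-1 ranged likewise, from -0.63 at PSAJ to 0.20 at RPL33 within 1 cluster, and from -0.73 at PSBI to 0.0050 at PSBK within another. In the long rpl23 cluster 10 of 11 genes were below 0 for footprints in ceres-1, with a median of -0.31 and RPOA, the last gene, highest at 0.031. In ceres-2 the median of that cluster was -0.037.

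**Figure D3:**
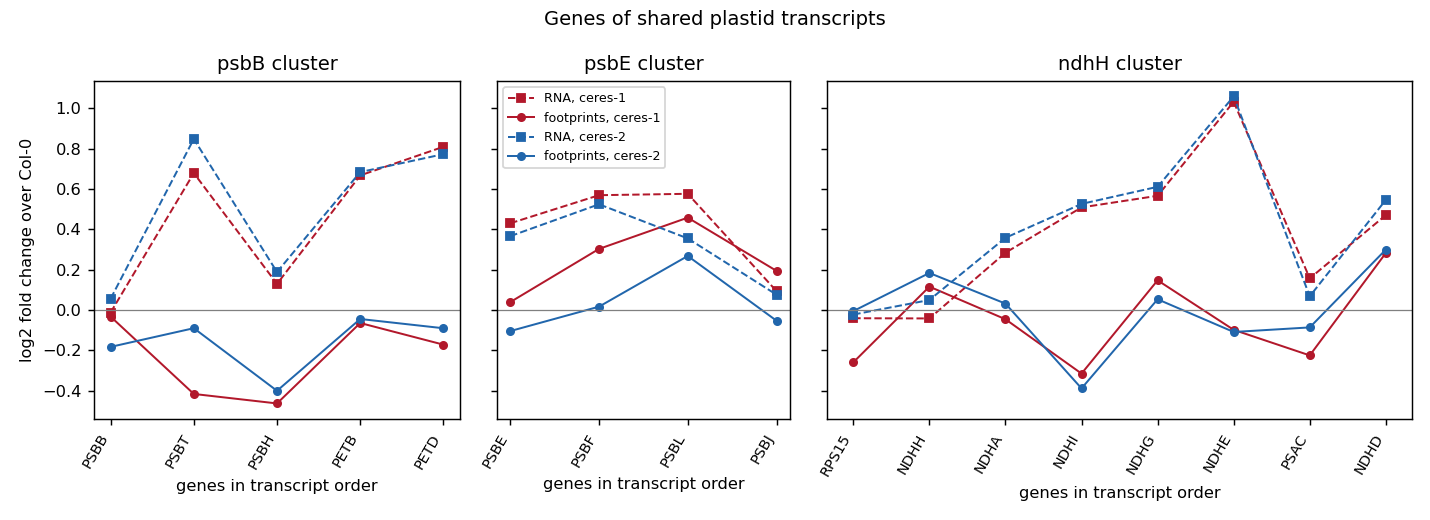
Log2 fold changes over Col-0 of RNA (dashed, squares) and footprints (solid, circles) along 3 plastid gene clusters, with genes in the order of the transcript. In the psbE cluster the footprint values of ceres-1 lie between 0.039 and 0.46, and in the ndhH cluster RNA peaks at NDHE in both mutants while footprints there stay near -0.10.

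Values varied with the length of the coding sequence. A coding length from RefSeq was available for 83 of 88 rows (94.3%). The 16 genes under 200 nt had median footprint log2 fold changes of -0.31 in ceres-1 and -0.12 in ceres-2, the 31 rows from 200 nt to below 600 nt had -0.23 and -0.053, and the 36 rows of at least 600 nt had 0.0060 and 0.10, from values of the authors' deposited table. Of the 4 genes called for footprints in ceres-1, 3 were under 200 nt, as were both genes called for efficiency. RNA medians of the shortest genes were 0.55 and 0.44, against 0.15 and 0.26 for the longest.

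Across the 83 rows, footprint change and log10 coding length had Pearson's r = 0.32 and Spearman's rho = 0.36 in ceres-1, and 0.40 and 0.54 in ceres-2. Over 9855 nuclear genes tested in both mutants the same values were 0.015 and 0.027 in ceres-1 and -0.23 and -0.24 in ceres-2. The 55 nuclear genes under 200 nt had footprint medians of 0.037 in ceres-1 and 0.097 in ceres-2. These are descriptions across genes that share libraries. Short genes also collect fewer reads, and the part of read depth or fragment length in the pattern was not tested.

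**Figure D4:**
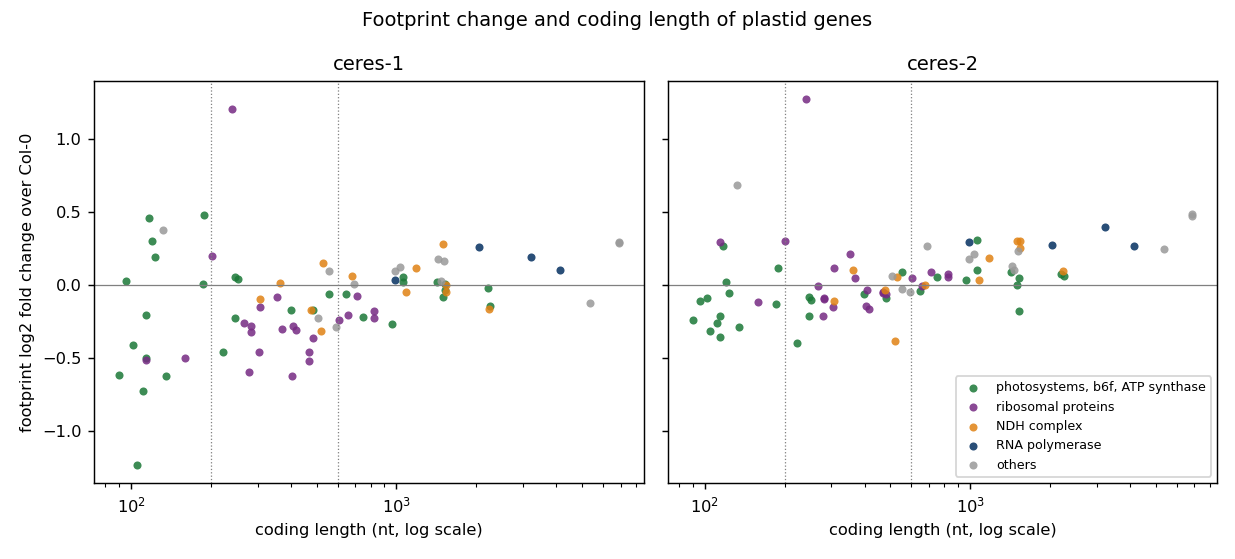
Footprint log2 fold change over Col-0 against coding length (log axis) for the 83 plastid rows with a RefSeq coding sequence, coloured by class, with dotted lines at 200 and 600 nt. Genes of at least 600 nt lie between -0.27 and 0.30 in ceres-1, while genes under 200 nt spread from -1.24 to 0.48.

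Genes with and without a motif in the start windows shown above had overlapping values. The 40 rows with a motif had median footprint minus RNA values of -0.28 in ceres-1 and -0.19 in ceres-2, and the 43 without one had -0.35 and -0.19. Footprint medians were -0.039 and 0.056 with a motif and -0.17 and -0.0042 without. A match in these letters is not evidence of a functional site.

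Nuclear genes for subunits of the same complexes offered a comparison from the other side of the organelle boundary. A list of 109 such genes was used, all of which are in the authors' deposited table, and it comprised photosynthetic and NDH subunits, Rubisco small subunits, plastid ribosomal proteins and polymerase-associated or phage-type polymerases. None was called for RNA and 1 was called for footprints, PETM (AT2G26500), a small subunit of cytochrome b6f, which fell by 0.34 in ceres-2 (adjusted p = 0.0122) and was at -0.057 in ceres-1, as the authors' deposited table lists it. That is 1 of 109 in ceres-2 (0.917%), below the background of 1.88%. RNA medians of the nuclear list were -0.027 in ceres-1 and -0.071 in ceres-2, footprint medians -0.0075 and 0.0027, and medians of footprint minus RNA -0.0092 and 0.063.

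Plastid RNA medians lay above the nuclear ones in each complex compared, by more in some than in others. In ceres-1 the footprint medians of the plastid ribosomal proteins stood furthest below those of their nuclear counterparts. For the NDH complex the plastid RNA medians of 0.40 and 0.39 stood beside nuclear medians of -0.060 and -0.12. For photosystem II the plastid values of 0.19 and 0.30 stood beside -0.0033 and -0.11. Footprint medians of the ribosomal proteins were -0.28 and -0.0064 for the plastid rows and 0.0077 and 0.049 for the 39 nuclear genes. The differences between these medians were not tested.

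**Figure D5:**
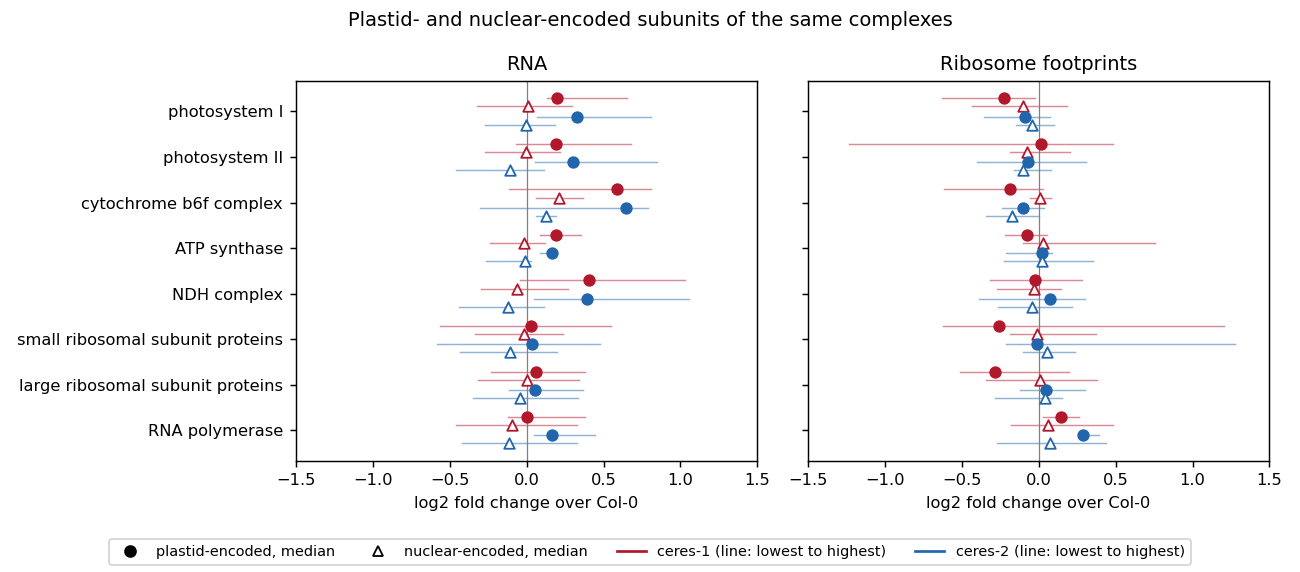
Median log2 fold changes over Col-0 of plastid-encoded (filled circles) and nuclear-encoded (open triangles) subunits of 8 complexes, for RNA and footprints, with lines from the lowest to the highest gene. Plastid medians lie right of the nuclear ones for RNA in each complex, and for footprints the ribosomal protein classes of ceres-1 stand furthest left of their nuclear counterparts.

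Footprint values of the other organelle genome were higher, with no test of the difference. The 110 mitochondrial genes with a footprint value in ceres-1 had a median of 0.95, and the 104 in ceres-2 had 0.60, in the authors' deposited table. RNA medians of the mitochondrial genes were 0.069 and 0.15. Most rows behind the footprint medians have no adjusted p for footprints, and so no stated precision. Of the 26 and 38 with an adjusted p for footprints, 3 were called in ceres-1, all higher, and 0 in ceres-2 by the authors' DESeq2 test, beside 0.642% and 1.88% of all genes called.

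Duplicated genes gave a view of how reads were shared between copies. NDHB, RPL2, RPL23, RPS7 and YCF2 have 2 copies with identical coding sequences in the reference, and the log2 fold changes of their copies differed by at most 0.025 for RNA and 0.064 for footprints in the authors' deposited table. Copies that share reads are not separate measurements, and how reads with several matches were counted was not given in the sources used here. Rows of ORF77, described as Ycf15, differed by 1.04 and 1.49 for footprints and have no adjusted p there. Of the RPS12 rows, RPS12A was at -0.56 and -0.59 for RNA, and RPS12B and RPS12C were between 0.20 and 0.29.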

How the data were processed

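The members and lists were chosen with earlier results of these data known. The submitters' processing notes name TopHat2 2.1.0 as aligner, featureCounts 1.6.2 for counting and DESeq2 for the comparisons, and the labels' protocols name a mammalian ribosome profiling kit. Genome build, annotation release, strand setting and shrinkage were not given in the sources used here. Both the log2 fold changes and the adjusted p-values in 12 columns are the authors' own, per the file headers, with no value per library. Nothing in the labels says whether replicates came from separate cultures, so the adjusted p-values measure only the spread between these libraries, which may be technical. Libraries not labelled as footprints were taken as RNA.

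Calls use the authors' adjusted p below 0.05 over all genes. Efficiency is given as footprint minus RNA log2 fold change, because the deposited efficiency fold changes follow the footprints (Pearson's r = 0.996 and 0.975 over plastid genes, against 0.72 and 0.68 with the difference). Medians take rows with a value. Counting and medians were tested on simulated data. Named genes are all called plastid rows (1 is not reported here), the lowest and highest footprint mean of both mutants per class of at least 3, PSBA, RBCL and called nuclear partners; other named members were added by role. Of 109 nuclear partners, 86 matched the reference or table by symbol and 23 by description. Python 3.11.15, numpy 2.4.6 and scipy 1.17.1 were used. Alternatives were other thresholds, a minimum fold, and sets without duplicated or short genes. Coordinates are not given.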

Additional observations from a re-analysis of the deposited data

How the results depend on the processing

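Of 86 alternative values computed for the counts, medians and named calls, 77 kept their direction and call, 2 lost a call, 5 counts moved by more than 1.5 times and 2 medians moved by more than 0.1 on the log2 scale. The footprint count in ceres-1 rose from 4 to 7 at an adjusted p below 0.1, and was 1 without genes under 200 nt of coding length, a set chosen after seeing the data. Without those short genes the efficiency count in ceres-1 was 0, since both called genes are short. The footprint count in ceres-2 was 1 at an adjusted p below 0.01, where RPS16 was lost, and 1 at a change of at least 1.5-fold, where PSBH was lost. The 2 medians are those of efficiency, which were -0.088 in ceres-1 and 0.039 in ceres-2 with the deposited efficiency column, the second on the other side of 0 from footprint minus RNA. Restricting the set to protein-coding rows removed none. With the deposited efficiency column, also chosen after seeing the data, PSBM was at -1.24 and PSAJ at -0.64 in ceres-1.

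No paired analysis was possible because the authors deposited comparisons and not libraries. For the same reason leaving out a library, another count test and a test between the mutants were not run. Depth is unknown, and rows with no adjusted p, such as RPS16 in ceres-1 and ORF77, have no stated precision.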

Other observations

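Plastid genes with an intron were compared with those without one as a further description. The 13 rows with an intron in the reference, among them ATPF, PETB, PETD, NDHA and CLPP1, had RNA medians of 0.15 in ceres-1 and 0.29 in ceres-2, and the 70 without one had 0.19 and 0.25, in the authors' deposited table. Footprint medians were -0.064 and 0.061 with an intron and -0.083 and 0.027 without. Of the 13 rows with an intron, RPS16, higher in ceres-2, was the single one called for footprints. Of the 70 rows without, 4 were called lower in ceres-1 and 1 lower in ceres-2. Over all genes tested, 0.291% were called lower in ceres-1, and 0.733% higher and 1.15% lower in ceres-2. Whether rows with and without an intron differ was not tested.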
